A study of Mus musculus with 10 samples.

Results

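S100 proteins are small calcium-binding proteins that mostly work as dimers, and annexins are a separate family that binds phospholipid membranes when calcium is present. The families meet in complexes, since S100A10 binds annexin A2 and S100A11 binds annexin A1. In the myeloid lineage S100A8 and S100A9 form calprotectin, a main cytosolic protein of neutrophils and monocytes, annexin A1 takes part in the resolution of inflammation, and annexin A5 is best known as the protein used to stain phosphatidylserine on dying cells. The genes described here are 10 of the 52550 in the count table: the S100 genes S100a4, S100a6, S100a8, S100a9, S100a10 and S100a11, and the annexins Anxa1, Anxa2, Anxa3 and Anxa5. They were found by symbol through their Ensembl identifiers and chosen as calcium-binding proteins of maturing myeloid cells. The rule used no measured value, but the choice was made with earlier results of these data known. Of the 10 genes, 8 had at least 10 counts in all libraries together. S100a10 was listed at 0 in every library and S100a4 had 1 count in total, so both are reported as not measured.

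The libraries hold RNA of mouse hematopoietic stem and progenitor cells (HSPCs) from C57BL/6 bone marrow, taken from mice of 8 to 20 weeks, transformed with retroviral MLL-AF9, a fusion oncogene of acute myeloid leukemia. All cells also carried the tetR-KRAB repressor and grew in SCF, GM-CSF, IL-6 and IL-3. In MLL-AF9-i139 cells doxycycline (DOX) switches on a lentiviral miR-139, and 3 colonies picked after transduction, clones 1 to 3, were each sequenced without DOX and with 5 µg/mL DOX. In the control MLL-AF9-ieGFP, DOX switches on eGFP, and a single clone gave a DOX and a no DOX library at each of 48 h and 72 h. DOX was given for 48 h to clones 1 and 2 and for 72 h to clone 3, so for clone 3 the clone and the time cannot be told apart. No time is given for the untreated MLL-AF9-i139 cultures. The Mir139 gene was listed at 0 in all 10 libraries. The lentiviral miR-139 was amplified from this gene, so its row does not separate transgene from endogenous reads. Induction of the transgene was not seen in these counts, and the paper measured it by qPCR in MLL-AF9-i139 clones.

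Library totals ranged from 35133308 to 47089725 counts, and 3 counts were 0.0637 to 0.0854 CPM of these totals. CPM are counts scaled to a common library total, and the levels below are CPM with totals adjusted by the TMM method of edgeR. Clone 3 with DOX stood apart from the other MLL-AF9-i139 clones with DOX: over all genes, chi-square divided by its degrees of freedom was 112 and 96.9 between it and clones 1 and 2, against 24.8 between those. The progenitor genes Elane, Ctsg and Mpo had mean levels of 1478, 1101 and 863 CPM. Hemoglobin genes Hba-a2, Hbb-bs and Hbb-bt were listed at 0. Zeros are read with care, because B2m, a gene that nearly all nucleated cells use, was also listed at 0 in all 10 libraries. B2m was looked up after the zeros of the members had been seen.

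The construct makes miR-139, so its mature strands are shown with the seed, bases 2 to 8, in capitals. The sequences are from RefSeq on GRCm38.p6, where miR-139-5p lies at chr7:101475382-101475403 and miR-139-3p at chr7:101475418-101475439, both on the plus strand.
mmu-miR-139-5p: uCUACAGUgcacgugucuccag
mmu-miR-139-3p: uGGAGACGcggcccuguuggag
The longest annotated 3′ UTR of each of the 10 genes was searched on the sense strand for ACTGTAG or CTGTAGA for miR-139-5p and for CGTCTCC or GTCTCCA for miR-139-3p. These letters pair with seed bases 2 to 8, or with bases 2 to 7 followed by an A. The UTRs are short, from 68 bases in S100a8 to 882 in Anxa3, and none of the 10 held any of these letters. Among 14445 genes with at least 10 counts and an annotated 3′ UTR, 21.6% held a match for miR-139-5p and 15.9% for miR-139-3p. The search covers these windows only.

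Positions are from GENCODE M21 on GRCm38, the build but not the release that the authors used. The 6 S100 genes lie on chromosome 3 within 2961 kb. S100a8, on the plus strand at chr3:90668978-90670035, and S100a9, on the minus strand at chr3:90692632-90695721, are separated by 22.6 kb. S100a11 (chr3:93520488-93526287) is followed after 28.8 kb by S100a10 (chr3:93555080-93564643). The high counts of S100a11 and the listed zeros of S100a10 are therefore those of neighbours. S100a6 (chr3:90612882-90624181) and S100a4 (chr3:90603771-90606045) lie on either side of S100a5, and 51.7% of the exon bases of S100a4 are shared with Gm42674 on the same strand, which leaves its single count uncertain. The annexins are spread over the genome, with Anxa1 at chr19:20373428-20390944, Anxa2 at chr9:69453620-69491795, Anxa3 at chr5:96793339-96845966 and Anxa5 at chr3:36448923-36475894. Anxa1 lies wholly inside 1500015L24Rik, a gene on the opposite strand, and shares 0% of its exon bases with exons of other genes. Of 753 protein-coding genes whose exons lie wholly inside genes of the opposite strand, 97.5% had fewer than 10 counts, against 40.4% of 11686 protein-coding genes with no exon base inside another gene. How reads in such overlaps were counted is not given in the sources used here, so the level of Anxa1 is uncertain. Of the exon bases of Anxa2, 30.4% lie inside the bodies of Gm16144 or Mir3109, and 2.63% are shared with exons of Gm16144, on the opposite strand.

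Levels between genes were compared as CPM per kb of exon. In untreated MLL-AF9-i139 S100a11 was highest at 229 ± 13.8 CPM per kb (SD, n = 3). S100a9 followed at 98.1 ± 27.0, Anxa3 at 78.9 ± 7.16 and S100a8 at 70.9 ± 17.8, and the ranges of neighbours among these 3 overlapped. Anxa5 (9.58 ± 1.73), Anxa2 (4.18 ± 0.898), Anxa1 (0.520 ± 0.222) and S100a6 (0.00618 ± 0.0107) came next in that order without overlap. Thus S100a11, the calprotectin pair and Anxa3, an annexin of neutrophil granules, form a high group, and the other annexins and S100a6 are lower. The place of Anxa1 is uncertain, since its exons lie wholly inside a gene on the opposite strand. In untreated MLL-AF9-ieGFP S100a9 (237 ± 21.1 CPM per kb, n = 2) and S100a11 (227 ± 2.06) led with overlapping ranges, ahead of S100a8 (164 ± 23.7) and Anxa3 (71.8 ± 9.27). Counted per kb of gene body, with introns, S100a8 ranked first in all 4 groups, so the order at the top depends on the length used.

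**Figure D1:**
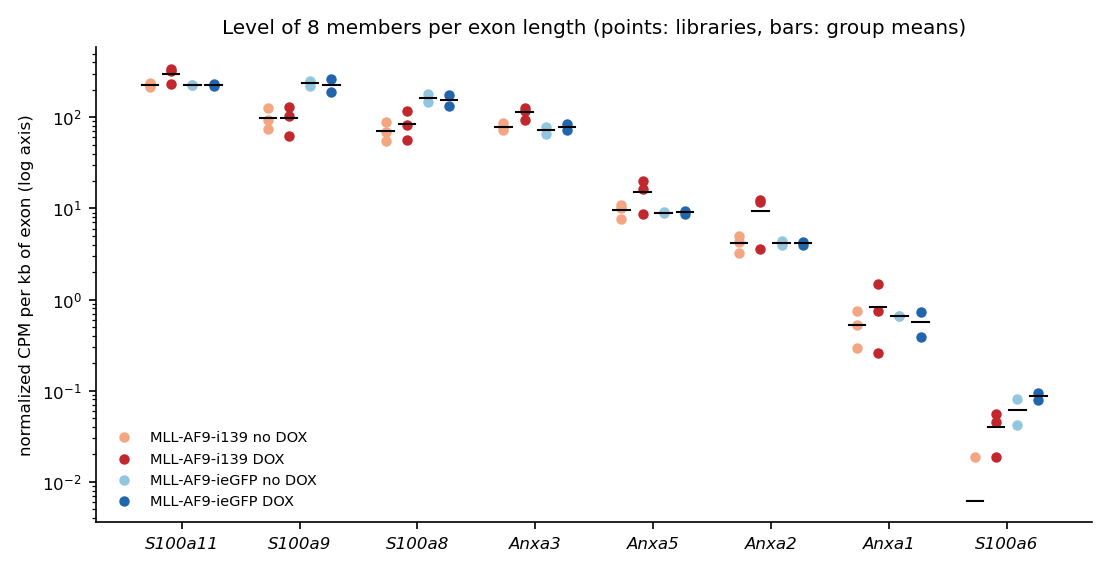
Normalized CPM per kb of exon (log axis) of the 8 measured genes, with 1 point per library and a bar at the mean of each group. S100a11, S100a9, S100a8 and Anxa3 lie above 50 CPM per kb in all libraries, and the 2 untreated MLL-AF9-i139 libraries in which S100a6 is 0 cannot be drawn on this axis.

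S100a8 and S100a9, the calprotectin genes, differed more between the constructs than with DOX. Without DOX, S100a8 was at 62.2, 47.7 and 37.6 CPM in MLL-AF9-i139 clones 1 to 3 and at 102.0 and 125.3 CPM in MLL-AF9-ieGFP at 48 h and 72 h. S100a9 was at 66.6, 48.1 and 39.0 CPM in the same clones and at 115.9 and 131.4 CPM in MLL-AF9-ieGFP. Neither gene overlapped between the constructs, which was also true of 8% of all genes tested in this direction. With DOX the clones held 81.1, 56.8 and 38.6 CPM of S100a8 and 67.1, 53.8 and 32.8 CPM of S100a9. MLL-AF9-ieGFP with DOX held 91.8 and 121.0 CPM of S100a8 and 98.5 and 135.6 CPM of S100a9, again above every MLL-AF9-i139 library.

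In edgeR's quasi-likelihood test over all 10 libraries, untreated MLL-AF9-i139 had 0.433 times the S100a8 of MLL-AF9-ieGFP (log2 difference -1.21, SE 0.28, 95% interval -1.82 to -0.60, adjusted p = 0.565). S100a9 was at 0.415 times (log2 difference -1.27, SE 0.28, adjusted p = 0.463). Of the 8 genes tested 0 were called at an adjusted p under 0.05, against 9 of all 20269 genes (0.0444%). At an unadjusted p under 0.05 there were 3 of the 8, S100a8, S100a9 and S100a6, against 2.48% of all genes. S100a6 is among them on counts at or near the limit of 3 counts. DESeq2 called S100a8 (adjusted p = 0.0175) and S100a9 (adjusted p = 0.00783) lower in MLL-AF9-i139, with 0.217% of all genes called. Without clone 3, the clone with the lowest levels, edgeR called S100a9 (adjusted p = 0.0440), against 0.152% of all genes, and gave S100a8 an adjusted p of 0.0810. MLL-AF9-ieGFP is 1 clone, so the construct and the clone cannot be told apart.

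None of the other measured members was called at baseline by edgeR or DESeq2. S100a11 averaged 117 ± 7.05 CPM in untreated MLL-AF9-i139 (n = 3) and 116 ± 1.05 in untreated MLL-AF9-ieGFP (n = 2), with a log2 difference of 0.01 (95% interval -0.30 to 0.32). Anxa3 (log2 difference 0.14, 95% interval -0.18 to 0.45) and Anxa5 (0.10, -0.53 to 0.73) had intervals around 0, and those of Anxa2 (0.00, -0.89 to 0.90) and Anxa1 (-0.33, -1.63 to 0.97) were wider. Low counts set the limit for S100a6, a relative of S100a4 that is common in proliferating cells, which had 0, 0 and 1 counts in untreated clones 1 to 3, 3, 3 and 1 with DOX, and 2 to 5 counts in every MLL-AF9-ieGFP library. These counts are at or near the limit of 3 counts, and no fold is given.

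S100a8 and S100a9 kept close to each other in every library. The ratio of S100a8 to S100a9 counts without DOX was 0.935, 0.991 and 0.966 in clones 1 to 3. With DOX it was 1.21, 1.06 and 1.18. The ratio was thus higher with DOX in each clone, and the groups did not overlap. The 95% intervals for counting error alone (exact Clopper-Pearson) separated the libraries of clone 1 (0.889 to 0.982 against 1.15 to 1.27) and clone 3 (0.898 to 1.04 against 1.09 to 1.27) but not those of clone 2 (0.932 to 1.05 against 0.994 to 1.12). The MLL-AF9-ieGFP ratios of 0.881 and 0.954 (no DOX) overlapped with those of 0.932 and 0.893 (DOX). A two-sided exact permutation test over the MLL-AF9-i139 libraries, without the pairing by clone, gave p = 0.1, the smallest that 3 against 3 allows. Groups that do not overlap must give this value, so the test adds nothing to the ranges. How often other pairs of genes separate in this way was not tested. The ratio was examined after the values of both genes had been seen.

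**Figure D2:**
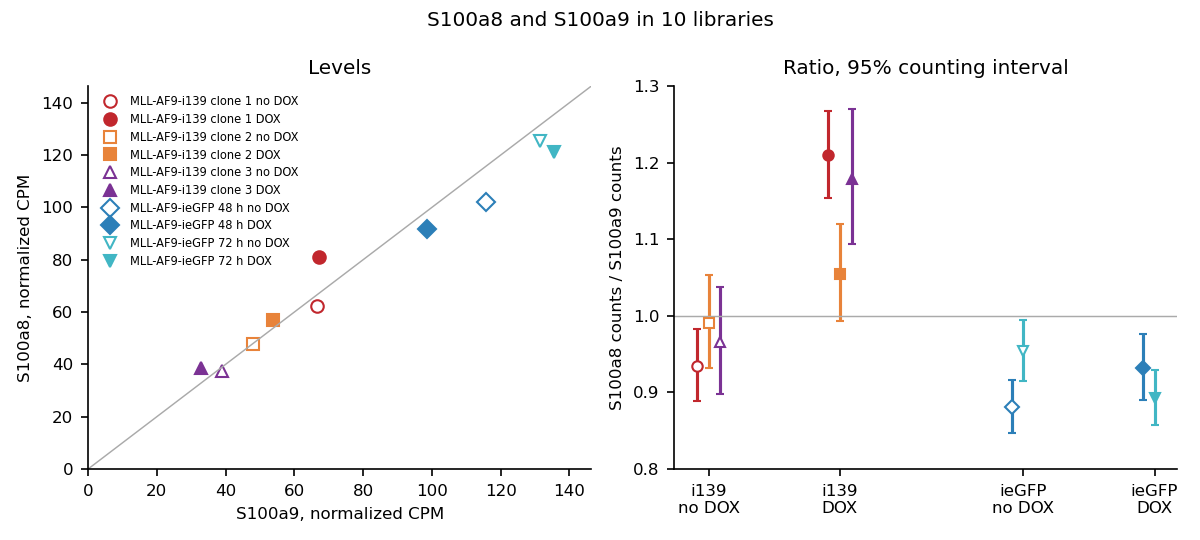
Left, S100a8 against S100a9 in normalized CPM in each of 10 libraries, with the line of equal levels. Right, the ratio of S100a8 to S100a9 counts with its 95% counting interval. The ratio itself lies between 0.935 and 0.991 in the untreated MLL-AF9-i139 libraries and between 1.06 and 1.21 with DOX. The counting intervals are wider, and those of clone 2 without and with DOX overlap.

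The main comparison asks which genes change when miR-139 is switched on in MLL-AF9-i139. The annexins Anxa2, Anxa3 and Anxa5 and the S100 genes S100a11 and S100a8 had higher levels with DOX in each of the 3 clones, as did 27.2% of all genes tested. In edgeR with all 6 libraries and each clone as its own block, Anxa2, Anxa3 and Anxa5 rose past the threshold. This blocked fit called 12.4% of all genes, with 7.05% higher. Without the block edgeR called none of the members, and DESeq2 called Anxa2 and Anxa3, with 8.09% of all genes called. S100a8 and S100a9 were not called in these fits.

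Anxa2, the partner of S100A10 in a plasmin-generating complex at the cell surface, was at 15.97, 18.8 and 12.1 CPM in clones 1 to 3 without DOX and at 46.5, 44.1 and 13.3 CPM with DOX. Clones 1 and 2 with DOX stood apart from all other libraries, while clone 3 with DOX lay within the untreated range. The fold was 2.91 in clone 1, 2.35 in clone 2 and 1.10 in clone 3. Without the block the fitted log2 change was 1.16 (SE 0.42, 95% interval 0.20 to 2.13, edgeR adjusted p = 0.182), and with the clone block it was 1.01 (SE 0.25, 95% interval 0.415 to 1.596, adjusted p = 0.0453). Among the 7 members tested Anxa2 had the largest log2 change in both fits.

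Anxa3, which is abundant in neutrophil granules, was at 315.7, 282.2 and 264.4 CPM without DOX and at 425.8, 466.1 and 342.6 CPM with DOX. All 3 treated libraries lay above all 3 untreated ones, which held for 12% of the 19223 genes tested. The log2 change was 0.53 (SE 0.13, 95% interval 0.22 to 0.84, adjusted p = 0.116) without the block and 0.52 (SE 0.09, 95% interval 0.30 to 0.74, adjusted p = 0.0271) with it. Anxa3 was the only member whose treated and untreated groups did not overlap.

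Anxa5 was at 19.4, 18.1 and 13.6 CPM without DOX and at 35.7, 29.3 and 15.2 CPM with DOX. As for Anxa2, clones 1 and 2 with DOX were the highest of all libraries and clone 3 with DOX lay within the untreated range. The log2 change was 0.67 (SE 0.29, adjusted p = 0.249) without the block and 0.60 (SE 0.15, 95% interval 0.25 to 0.95, adjusted p = 0.0445) with it.

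S100a11, a cytosolic partner of annexin A1, was at 118.9, 122.6 and 109.0 CPM without DOX and at 163.5, 174.7 and 119.2 CPM with DOX. The groups overlapped through clone 3. The log2 change was 0.40 (SE 0.15, adjusted p = 0.191) without the block and 0.38 (SE 0.10, 95% interval 0.14 to 0.62, adjusted p = 0.0520) with it, just over the threshold.

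As counted here Anxa1 was low and uneven. In clones 1 to 3 it was at 2.15, 1.53 and 0.862 CPM without DOX and 4.32, 2.16 and 0.762 CPM with DOX. It was higher with DOX in clones 1 and 2 and lower in clone 3. Its log2 change with the block was 0.55 (SE 0.25, 95% interval -0.05 to 1.14, adjusted p = 0.193). S100a8 had a log2 change of 0.27 (SE 0.28, adjusted p = 0.613) without and 0.24 (SE 0.10, 95% interval 0.01 to 0.47, adjusted p = 0.145) with the block. For S100a9 the values were 0.01 (SE 0.28, adjusted p = 0.981) and -0.01 (SE 0.10, 95% interval -0.26 to 0.23, adjusted p = 0.959).

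**Figure D3:**
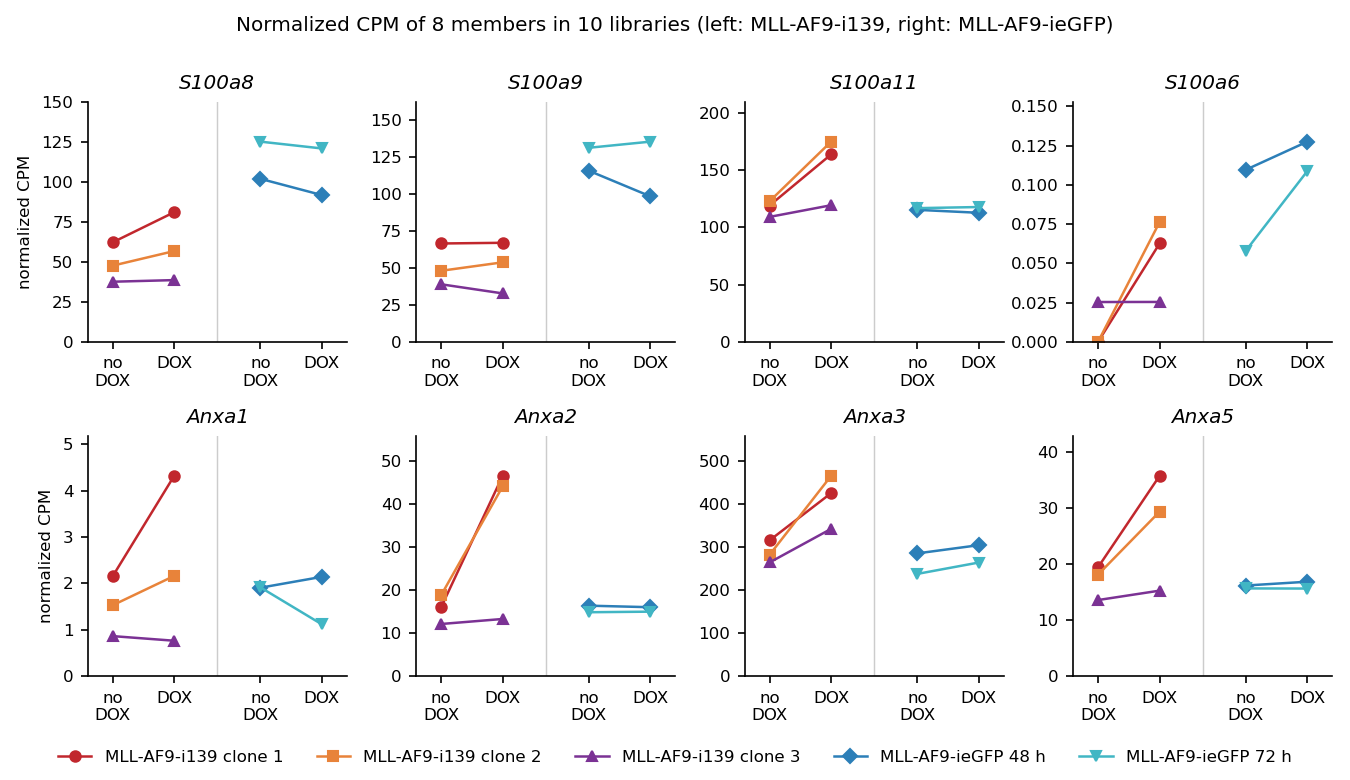
Normalized CPM (linear axes from 0) of the 8 measured genes, with a line from the untreated to the DOX library of each MLL-AF9-i139 clone and each MLL-AF9-ieGFP time point. Anxa2 reaches 46.5 and 44.1 CPM in clones 1 and 2 with DOX against 13.3 CPM in clone 3, and S100a8 and S100a9 are higher in all MLL-AF9-ieGFP libraries than in any MLL-AF9-i139 library.

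Over all members, 7 were tested in the 6 MLL-AF9-i139 libraries, since S100a6 fell under 10 counts there. Without the block edgeR called 0 of them, against 12 of all 19223 genes (0.0624%). At an unadjusted p under 0.05 there were 3 of 7 (S100a11, Anxa2 and Anxa3), against 20.6% of all genes. With the clone block 3 of 7 were called, all higher, against 2381 of all genes (12.4%, with 7.05% higher), and 5 of 7 had an unadjusted p under 0.05, against 31.2%. DESeq2 without the block called Anxa2 (adjusted p = 0.0315) and Anxa3 (adjusted p = 0.0195), against 8.09% of all genes. DESeq2 with the block, which was added after seeing the data, called these, Anxa5 and S100a11, against 15.7% of all genes. Of the 7 genes, 5 were higher with DOX in each of the 3 clones (S100a8, S100a11, Anxa2, Anxa3 and Anxa5), against 27.2% of all genes. The median log2 change without the block was 0.27 for the 3 S100 genes tested and 0.68 for the 4 annexins, and 0.01 over all genes tested.

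Clone 3 decided many of these calls. Without it, edgeR called 3981 of 18359 genes (21.7%) and 4 of the 7 members without the block: Anxa2 (log2 change 1.40, SE 0.12, adjusted p = 0.000392), Anxa5 (0.82, SE 0.13, adjusted p = 0.00463), Anxa3 (0.60, SE 0.10, adjusted p = 0.00518) and S100a11 (0.50, SE 0.09, adjusted p = 0.00623). With the block and without clone 3, also added after seeing the data, 6 members were called, all but S100a9, against 43.4% of all genes. Without clone 1 or without clone 2 none of the members was called, with or without the block. In clone 3 the change of Anxa3 (log2 0.37) was closer to that of clone 1 (0.43) than the changes of Anxa2 (0.13 against 1.54) and Anxa5 (0.17 against 0.88) were.

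**Figure D4:**
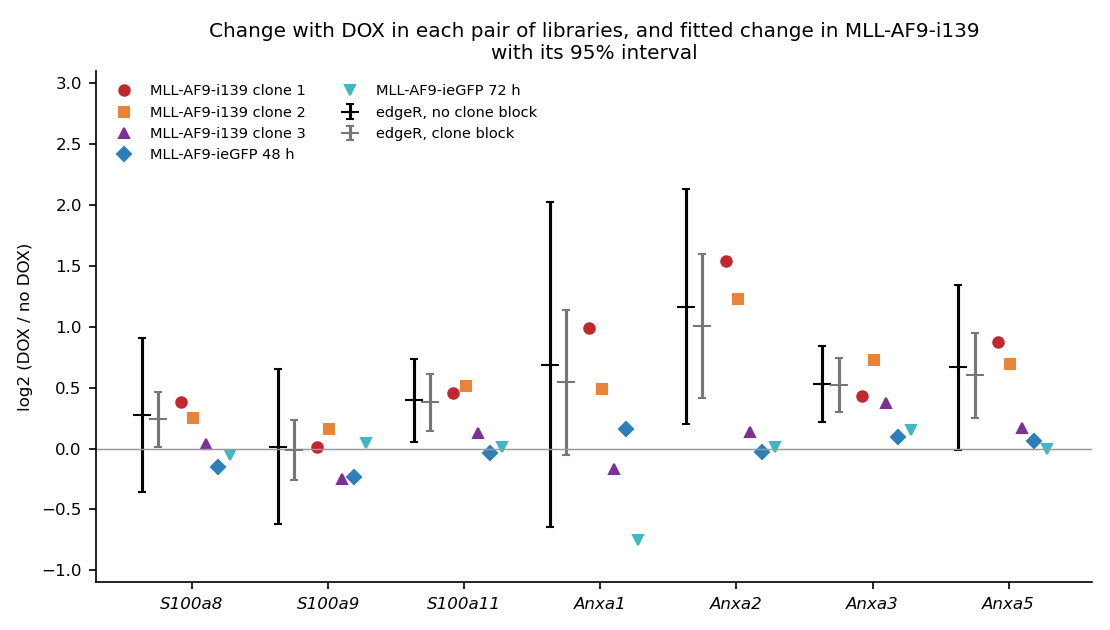
Log2 of DOX over no DOX for the 7 genes tested in MLL-AF9-i139, with 1 point per clone or MLL-AF9-ieGFP time point, and the edgeR estimate in MLL-AF9-i139 with its 95% interval without (black) and with (grey) the clone block. The points of clone 3 lie below those of clones 1 and 2 for every gene drawn, and the blocked intervals of S100a8, S100a11, Anxa2, Anxa3 and Anxa5 lie above 0.

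DOX in MLL-AF9-ieGFP tells whether DOX without miR-139 moves these genes. Anxa2 was at 16.4 and 14.8 CPM without DOX and at 15.99 and 14.96 CPM with DOX at 48 h and 72 h. Anxa3 was at 285.5 and 237.8 CPM without and 304.7 and 264.3 CPM with DOX, Anxa5 at 16.2 and 15.6 without and 16.8 and 15.6 with DOX, and S100a11 at 115.1 and 116.6 without and 112.6 and 117.6 with DOX. These groups overlapped for all 4 genes. By edgeR 0 of the 8 members were called, as were 0 of all 20269 genes (0%), and DESeq2 called 0 members and 1 gene (0.00493%). At an unadjusted p under 0.05 there were 0 members and 1.28% of all genes. The log2 changes were 0.12 for Anxa3 (95% interval -0.22 to 0.46), 0.03 for Anxa5 (-0.66 to 0.72) and -0.01 for S100a11 (-0.35 to 0.33). For Anxa2 the log2 change was -0.01 (-0.99 to 0.97), an interval that does not exclude a change of nearly 2-fold in either direction. The fit shares its spread over all 10 libraries, so these intervals also carry the spread between MLL-AF9-i139 clones. Within MLL-AF9-ieGFP the log2 change of Anxa2 was -0.03 at 48 h and 0.01 at 72 h. Anxa1, at 1.91 and 1.91 CPM without and 2.14 and 1.12 CPM with DOX, moved apart at the 2 times.

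The difference between the DOX effects of the constructs was tested directly as an interaction. Its log2 value was 1.16 for Anxa2 (SE 0.57, 95% interval -0.11 to 2.43, adjusted p = 0.570), 0.62 for Anxa5 (SE 0.41, adjusted p = 0.646), 0.40 for Anxa3 (SE 0.20, adjusted p = 0.576) and 0.39 for S100a11 (SE 0.20, adjusted p = 0.577). By edgeR 0 of 8 members were called, against 1 of all 20269 genes (0.00493%), and 0 members had an unadjusted p under 0.05, against 9.17%. DESeq2 called 0 members, against 0.409% of all genes, with 1 member (Anxa2) at an unadjusted p under 0.05, against 8.09%. With clones and time points as blocks 0 members were called, against 0.187% of all genes, and 5 members (S100a8, S100a11, Anxa2, Anxa3 and Anxa5) had an unadjusted p under 0.05, against 18.9% of all genes. A different response of these members to DOX in MLL-AF9-i139 and MLL-AF9-ieGFP was therefore not established with all libraries in the fit. Without clone 3, Anxa2 (interaction 1.43, SE 0.17, adjusted p = 0.000649), S100a11 (0.53, SE 0.11, adjusted p = 0.0145) and Anxa5 (0.80, SE 0.18, adjusted p = 0.0190) were called, against 10.2% of all genes. Clone 3 is the clone in which these genes changed least with DOX (fold 1.10, 1.09 and 1.12). Of 10 alternative fits of the interaction, 9 left each of these genes uncalled.

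The wider families were counted from lists of other S100 genes, other annexins, and receptors and partners. Of 10 other S100 genes 5 had enough counts to be tested in MLL-AF9-i139, and 2 of them rose with the clone block, with which edgeR called 12.4% of all genes. They were S100a1, known from muscle, with a log2 change of 0.89 (SE 0.11, adjusted p = 0.0173), and S100a13, which takes part in the release of FGF1, with 0.67 (SE 0.16, adjusted p = 0.0425). The fold of S100a1 was 1.99, 1.74 and 1.79 in clones 1 to 3, and 1.10 and 1.35 in MLL-AF9-ieGFP at 48 h and 72 h, and its interaction was not called (log2 0.61, SE 0.32, adjusted p = 0.586). Without the block neither was called by edgeR (adjusted p = 0.114 and 0.176). DESeq2 without the block called S100a1 (adjusted p = 0.00450), against 8.09% of all genes. Of 8 other annexins 5 were tested, and 1 rose with the block, Anxa11 (log2 change 0.43, SE 0.10, adjusted p = 0.0436), which DESeq2 also called without the block (adjusted p = 0.0304). Anxa6 had a log2 change of 0.34 (adjusted p = 0.0639, and 0.0117 without the block and clone 3), Anxa4 of 0.44 (adjusted p = 0.151), Anxa7 of 0.22 (adjusted p = 0.137) and Anxa9 of -0.27 (adjusted p = 0.255).

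Among 10 receptors and partners 7 were tested and 0 were called with or without the block by edgeR, with 4 and 2 of them at an unadjusted p under 0.05, against 31.2% and 20.6% of all genes. DESeq2 without the block called 1, Plaur (adjusted p = 0.0274), against 8.09% of all genes. Tlr4, a receptor for extracellular calprotectin, had a log2 change of -0.13 with the block (SE 0.12, adjusted p = 0.523), and Ager, the receptor for advanced glycation end products that also binds S100 proteins, of 0.17 (SE 0.20, adjusted p = 0.617). The calls of 3 genes of the plasminogen system, with which the annexin A2 complex works, differed between fits. With the block in edgeR Plau, the urokinase plasminogen activator, had a log2 change of 1.00 (SE 0.28, adjusted p = 0.0587), its receptor gene Plaur 0.89 (SE 0.33, adjusted p = 0.115) and the plasminogen receptor gene Plgrkt 0.51 (SE 0.14, adjusted p = 0.0570). DESeq2 with the block called Plau (adjusted p = 0.0238) and Plgrkt (adjusted p = 0.0162). This fit was added after seeing the data and called 15.7% of all genes. Without the block and clone 3, edgeR called Plaur (adjusted p = 0.000201) and Plgrkt (adjusted p = 0.00270), against 21.7% of all genes. In clone 3 the fold of Plaur was 0.823, against 2.67 and 2.70 in clones 1 and 2. Fpr2, a receptor of annexin A1, and Cyba were listed at 0.

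**Figure D5:**
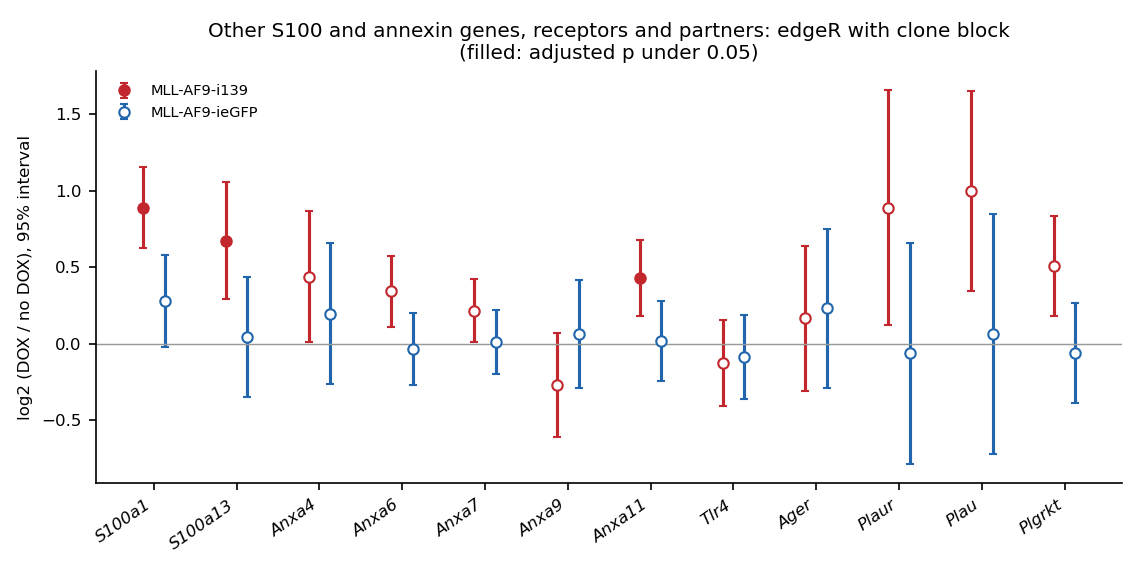
Log2 of DOX over no DOX with its 95% interval from edgeR with the block, for other S100 and annexin genes and receptors and partners with a mean of at least 1 CPM, in MLL-AF9-i139 (red) and MLL-AF9-ieGFP (blue). Filled points, which have an adjusted p under 0.05, are S100a1, S100a13 and Anxa11 in MLL-AF9-i139, and no MLL-AF9-ieGFP point is filled.

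Genes whose levels followed those of the members most closely were ranked by Pearson's r of log2 CPM over the 10 libraries among 11860 genes with a mean of at least 1 CPM. Libraries of a clone and of a construct share their source, so r is a measure of likeness only. For S100a8 the closest gene was S100a9 (r = 0.98), then Hes6 (0.95), Il18r1 (0.93), Slc16a3 (0.92) and Mzf1 (0.91). Within the 6 MLL-AF9-i139 libraries r was lower for Hes6 (0.81), Il18r1 (0.86), Slc16a3 (0.74) and Mzf1 (0.78). For Anxa2 they were Itm2b, Fuca1, Atp6ap1, Ctsa and Irak4 (r from 0.99 to 1.00). Anxa2 was at 46.5 and 44.1 CPM in clones 1 and 2 with DOX and at most 18.8 CPM elsewhere. Its r values therefore rest much on those libraries. Among the members Anxa2 went with Anxa5 (r = 0.98), S100a11 (0.97) and Anxa3 (0.85), and S100a8 went with none of these (r with Anxa2 0.05). Within the 6 MLL-AF9-i139 libraries alone S100a8 had an r of 0.99 with Anxa1, 0.93 with S100a9, 0.90 with Anxa5 and 0.79 with Anxa2. The separation of S100a8 from Anxa2 and Anxa5 over all 10 libraries was therefore much smaller within MLL-AF9-i139.

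Markers of other stages and cell types were measured in the same libraries. The summed level of 13 neutrophil maturation genes was 203 to 239 CPM in untreated MLL-AF9-i139, 330 to 528 CPM with DOX, and 255 to 331 CPM in MLL-AF9-ieGFP with and without DOX. Of 11 tested 6 rose with the block, against 7.05% of all genes called higher, among them Ngp (log2 change without the block 1.34, adjusted p with it 0.0109), Csf3r (1.26, 0.00955) and Cebpe (0.60, 0.0347), and 0 fell. Without the block edgeR called 0 of the 11, with 6 at an unadjusted p under 0.05, against 20.6% of all genes. DESeq2 called 5, against 8.09% of all genes. Of the monocyte and macrophage genes 9 of 12 were tested, and with the block Csf1r and Lyz2 rose and Ccr2 fell, with 12.4% of all genes called. At an unadjusted p under 0.05 with the block 7 were higher and 2 lower, against 31.2% of all genes. Irf8 was listed at 0. The summed level was 367 to 453 CPM without and 326 to 449 CPM with DOX in MLL-AF9-i139. Most of this sum was Ly6c2, with means of 395 CPM without and 321 CPM with DOX, so it says little about the other genes. Of 11 early progenitor genes 3 rose with the block (Mpo, Cd34 and Ctsg) and 2 fell (Myc and Hoxa9), again with 12.4% of all genes called. Without the block edgeR called 0 of the monocyte and 0 of the progenitor genes, with 5 of each at an unadjusted p under 0.05 (20.6% of all genes). DESeq2 called 4 and 2 (8.09% of all genes). Without clone 3 and the block edgeR called 6 neutrophil, 7 monocyte and 6 progenitor genes, against 21.7% of all genes. Lists for other cell types gave sums under 55 CPM in every library. These were B cells (2.75 to 26.1 CPM), T and NK cells (12.9 to 53.7), stroma and endothelium (17.8 to 38.3, nearly all Pecam1), mast cells and basophils (9.69 to 16.6), eosinophils (1.78 to 4.39), erythroid cells (1.73 to 2.74) and megakaryocytes (1.44 to 3.00). In them Mcpt8 (1 of 3 mast cell and basophil genes tested) and Gp9 (1 of 4 megakaryocyte genes) rose with the block. Ighm (1 of 4 B cell genes tested) fell, and the other lists of these cell types held no call, with 12.4% of all genes called. Gp9 was near the limit of 3 counts, with means of 0.100 CPM without and 0.692 CPM with DOX in MLL-AF9-i139. In bulk RNA a different share of maturing cells and more RNA of a gene per cell cannot be told apart, and the part of these markers in the changes of the annexins was not tested.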

How the data were processed

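The authors mapped reads of rRNA-depleted total RNA to GRCm38 with STAR (2.5.3e), counted them per gene with featureCounts (1.6.0) on GENCODE vM15 and deposited raw counts without a filter or normalization. Columns of 14 other samples in the table were not used. The members and gene lists were chosen with earlier results of these data known. Here genes with at least 10 counts over the libraries of a fit were tested with edgeR 4.0.16 (R 4.3.3; quasi-likelihood test, TMM, Benjamini-Hochberg, called at an adjusted p under 0.05). DOX in MLL-AF9-i139 was fitted on 6 libraries, and MLL-AF9-ieGFP, the interaction and the baseline on all 10 with 4 group means. Alternatives were DESeq2 1.42.0, RLE size factors, other filters, a replicate block, and leaving out libraries. Clone numbers pair libraries of the same clone: deviations from group means correlated at 0.38, 0.29 and 0.41 for clones 1 to 3, and at 0.17 for the MLL-AF9-ieGFP time points. MLL-AF9-i139 replicates are separate clones and MLL-AF9-ieGFP replicates are time points of 1 clone, whose spread may be technical. Libraries of a group differed by more than sampling noise (chi-square over its degrees of freedom from 13.5 to 112). Folds within 1 clone compare its DOX and no DOX levels, and a prior count of 2 was added for their log2 values. Named were all members, listed family genes, receptors and partners with a mean of at least 1 CPM, at most 3 genes of highest level per cell type list, and the 5 genes most like S100a8 and Anxa2. Genes called in a cell type list, and those listed at 0, were named after their values were seen. Scripts were tested on simulated data.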

Additional observations from a re-analysis of the deposited data

How the results depend on the processing

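S100a6 is limited by its low counts. The listed zeros of S100a10 and the single count of S100a4 have no tested cause. Without the block DOX in MLL-AF9-i139 gave 12 called genes and 0 members. DESeq2 gave 1556 genes and 2 members (Anxa2 and Anxa3), no filter 562 genes, at least 10 counts in every library 2 genes, and a fit of all 10 libraries 1234 genes and 1 member (Anxa3). The replicate block gave 2381 genes and 3 members. Without 1 clone there were 0 to 3981 genes and 0 to 4 members. Added after seeing the data, DESeq2 with the replicate block gave 3012 genes and 4 members (S100a11, Anxa2, Anxa3 and Anxa5), and the block 324, 580 and 7974 genes and 0, 0 and 6 members without clone 1, 2 or 3. Without 1 library pair the interaction gave 0 to 3 members, again the highest without clone 3. At baseline DESeq2 and no filter each called 2 members (S100a8 and S100a9), and leaving out 1 replicate 0 or 1. In MLL-AF9-ieGFP 0 members were called under every alternative run, and the replicate block changed no call of a member there or in the interaction. The cause of these shifts was not tested. Directions turned only for members and partners that were not called in the same comparison. S100a9 with DOX in MLL-AF9-i139 was -0.011 with the replicate block, -0.015 with DESeq2 and the block, -0.065 to 0.098 without 1 clone, and -0.041, -0.11 and 0.10 with the block and without clone 1, 2 or 3. Without 1 clone Ager ranged from -0.012 to 0.31 and Tlr4 from -0.25 to 0.028, and Tlr4 was 0.029 with the block and without clone 3. With 1 time point left out, MLL-AF9-ieGFP gave -0.23 to 0.030 for S100a9, -0.79 to 0.17 for Anxa1 and -0.017 to 0.064 for Anxa5, and the interaction of S100a9 ranged from -0.0095 to 0.23. At baseline DESeq2, RLE size factors and 10 counts in every library gave -0.0021, -0.0022 and -0.0067 for S100a11 and -0.0123, -0.0122 and -0.016 for Anxa2. With 1 replicate left out, these ranged from -0.033 to 0.036 for S100a11, -0.15 to 0.13 for Anxa2 and -0.0042 to 0.21 for Anxa5.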
